A study of Homo sapiens with 22 samples.

Results

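RMC-4550, an inhibitor of the phosphatase SHP2, was compared directly with Cobimetinib, an inhibitor of the kinases MEK1 and MEK2, in xenograft tumours grown from H2110, a line of human lung adenocarcinoma cells. The comparison rests on 8 of the 22 tumours in the series, 4 per drug, chosen by the treatment named in their labels, and covers all 17098 genes that passed a filter on low counts. Cells labelled as wild type were injected, tumours reached about 300 mm3, and dosing was oral on 3 consecutive days with RMC-4550 at 30 mg/kg, Cobimetinib at 3 mg/kg or Vehicle. The title names RIT1, a RAS-related GTPase, as a driver and drug target in this cancer. The 6 Vehicle tumours were in the same fit, where they shared the estimate of spread, and the tumours on the other drugs (RMC-7977 and trametinib) were not. All tumours came from 1 cell line, the host is not named in the labels, and the doses of the 2 drugs differ, so every difference holds at these doses. Replicates are labelled as separate samples but not as separate animals, so p-values measure the spread among these samples alone, and that spread may be technical.

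SHP2, encoded by PTPN11, acts just below receptor tyrosine kinases, where it helps the exchange factor SOS1 to load RAS proteins with GTP. MEK lies further down the same cascade, between RAF and ERK. ERK induces its own brakes, among them the Sprouty proteins and the phosphatase DUSP6, so a block at MEK also relieves feedback on the steps above it, while a block at SHP2 reduces the input to RAS and to every branch that RAS feeds.

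The total count was 11951272 to 15888488 per RMC-4550 tumour, 12655067 to 15428394 per Cobimetinib tumour and 11160546 to 17265754 per Vehicle tumour. RMC-4550 replicate 1 and Vehicle replicate 1 stood apart from the other 12 libraries of the fit. Their median correlation of log2 CPM (CPM is a read count scaled to the size of its library) with the others was 0.925 and 0.926, against 0.966 to 0.977. Ribosomal protein genes took 9.24% and 6.93% of their counts, against 3.19% to 5.60% elsewhere. Across genes, the rank correlation between GC content and a library's deviation from the mean was −0.614 and −0.568 in these 2, and it was −0.339 in Cobimetinib replicate 3 and −0.0311 to 0.483 in the rest. Results are therefore given with and without RMC-4550 replicate 1, and the part of these properties in any result was not tested beyond that and the GC offset in the closing section. All 6 epithelial markers of the line (KRT7, KRT8, KRT18, KRT19, EPCAM and CDH1) were detected, with a summed level of 3040 to 4550 CPM under RMC-4550 and 3320 to 4310 CPM under Cobimetinib. Tumours were sequenced in bulk, so fewer cells of a type and less RNA per cell cannot be told apart.

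The 2 drugs differed in few genes that passed the test. With all tumours, 20 of 17098 genes (0.117%) were called, that is, had a Benjamini-Hochberg adjusted p under 0.05 in edgeR's quasi-likelihood test. Of these, 16 (0.0936%) were higher and 4 (0.0234%) lower under RMC-4550, and 18 differed by at least 1 on the log2 scale. In all 20 the tumours of the 2 drugs did not overlap, which was also true of 4.44% of all genes tested in the higher direction and 3.96% in the lower. An unadjusted p under 0.05 was reached by 1711 genes, 1032 higher and 679 lower, and the median log2 fold change of all genes was 0.01. The counts over all genes given here and in the next paragraph are the background for the counts of each list. The mean under Vehicle lay between the 2 drugs for all 16 higher genes and for 3 of the 4 lower ones. These genes were picked for a difference between the 2 drugs, which makes a Vehicle mean between them likely. The share over all genes was not worked out. Of the 20, only HDAC9 and SPRY4 were called for RMC-4550 against Vehicle, and no gene was called for Cobimetinib against Vehicle.

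The number of calls depended on the tumours in the fit. Without RMC-4550 replicate 1, 5 of 17438 genes (0.0287%) were called, 4 higher (0.0229%) and 1 lower (0.00573%). The 3 remaining RMC-4550 tumours did not overlap the Cobimetinib tumours for 6.78% of genes in the higher and 6.03% in the lower direction. The 5 calls were HDAC9, DKK1, ARID5B and HAPLN2, which were called with it too, and CALCA. With the 2 drug groups alone in the fit, 22 of 16364 genes (0.134%) were called with replicate 1, 15 higher (0.0917%) and 7 lower (0.0428%), 10 of them among the 20. Without it, in a fit chosen after seeing the data, 126 of 16709 (0.754%) were called, 100 higher (0.598%) and 26 lower (0.156%), among them 19 of the 20. Leaving out Vehicle replicate 1 from the fit of 14 tumours gave 71 calls, and leaving out Vehicle replicates 2 and 3 gave 28 and 24. Without Vehicle replicates 5, 6 and 7 there were 7, 6 and 10. Leaving out Cobimetinib replicates 1, 2, 3 and 4 gave 1, 0, 1 and 0 calls. In the same order, 1257, 1222, 1858 and 1399 genes had an unadjusted p under 0.05. Without RMC-4550 replicates 2, 3 and 4 there were 1, 14 and 2 calls. HDAC9 was called in 12 of these 14 fits and the other 19 genes in 3 to 8 of them. All 19 were lost whenever any Cobimetinib tumour was left out, with a highest adjusted p per gene of 0.105 to 0.216. On the same 14 tumours DESeq2 called 226 genes (1.32%), 19 of the 20 among them, and limma voom with library weights called 390 (2.28%), all 20 among them. None of the 20 changed its direction under any setting in which it was tested. They were called in these same tumours with no overlap between the drugs, so a change was unlikely from the start.

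**Figure D1:**
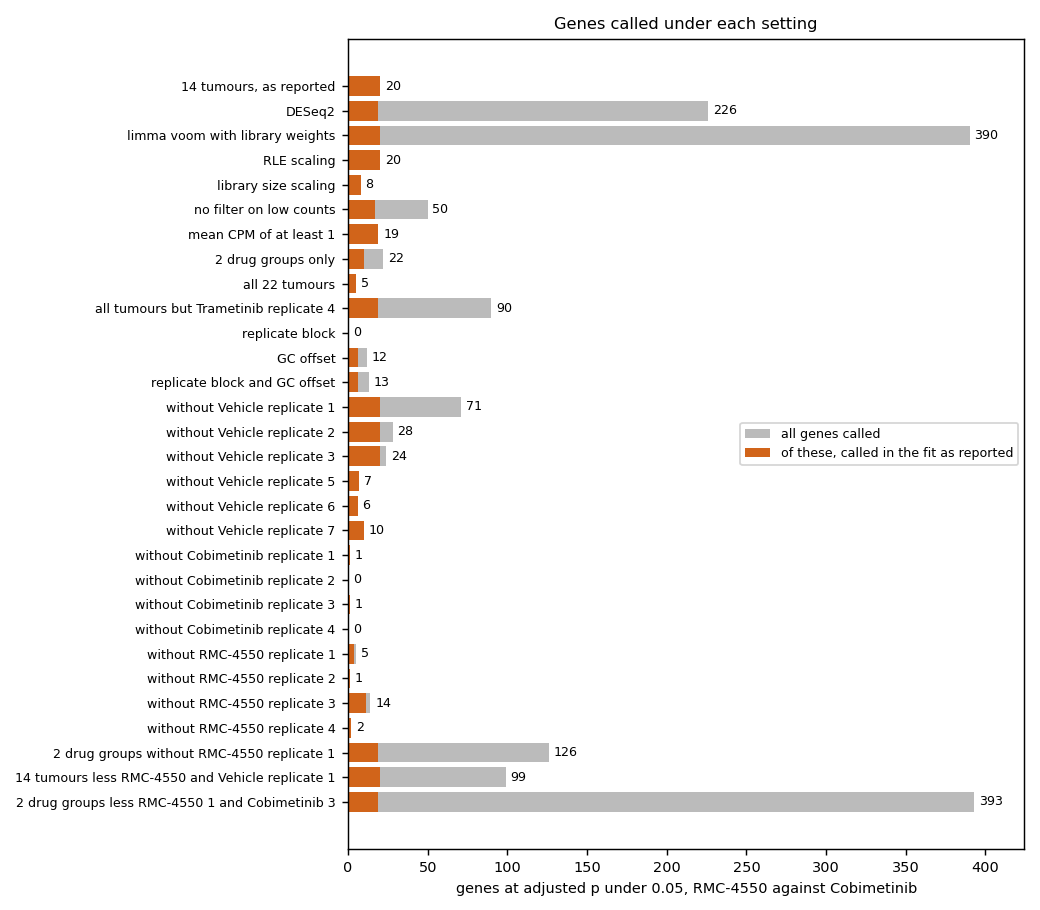
Number of genes called (grey bars, x axis) under each setting (y axis), with the part that was also called in the fit of 14 tumours in orange. The count ran from 0 to 393 over the settings and was 20 in the fit as reported.

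The gene with the lowest adjusted p was HDAC9 (ENSG00000048052, chr7:18086949-19002416), a class IIa histone deacetylase that binds MEF2 transcription factors. Its level was 13.9, 10.2, 12.2 and 10.9 CPM in RMC-4550 replicates 1 to 4 and 3.26, 2.31, 3.44 and 2.28 CPM in Cobimetinib replicates 1 to 4. Every RMC-4550 tumour lay above every Cobimetinib tumour and above all 6 Vehicle tumours (4.01 ± 0.931 CPM, SD, n = 6). It rose by 2.06 ± 0.24 (log2 fold change ± SE) under RMC-4550 relative to Cobimetinib, with an edgeR adjusted p of 0.00498. Without RMC-4550 replicate 1 the difference was 1.97 ± 0.26, with an adjusted p of 0.0195. The adjusted p was 0.0535 without Cobimetinib replicate 2 and 0.0555 without Cobimetinib replicate 4. HDAC9 was also called for RMC-4550 against the same Vehicle tumours, at 1.55 (adjusted p 0.0141), and under Cobimetinib it was −0.50 from Vehicle, which was not called.

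ARID5B (chr10:61901300-62096944), a DNA-binding protein that works with a histone demethylase, was 44.9, 59.2, 36.7 and 55.5 CPM under RMC-4550 and 20.4, 25.1, 20.04 and 23.6 CPM under Cobimetinib. The groups were well separated, the lowest RMC-4550 tumour being replicate 3. It rose by 1.14 ± 0.17 (edgeR adjusted p 0.0262), and by 1.18 ± 0.18 without replicate 1 (0.0358). RASGRP3 (chr2:33436324-33564750), an exchange factor that activates RAS and RAP proteins, rose from 10.5 ± 1.60 to 20.8 ± 3.51 CPM (SD, n = 4 each). Its difference of 0.99 ± 0.18 passed narrowly (adjusted p 0.0460) and did not pass without replicate 1 (1.02 ± 0.20, adjusted p 0.0959). ARHGAP42 (chr11:100687653-100993941) was 39.3 to 44.2 CPM under RMC-4550 and 14.8 to 23.6 CPM under Cobimetinib (1.081 ± 0.19, adjusted p 0.0397). ARRDC3 (chr5:91368724-91383359), an arrestin-like adaptor for receptor breakdown, was 267, 152, 112 and 196 CPM against 63.6, 93.2, 68.8 and 59.7 CPM. Replicate 1 held its highest value, and its difference was 1.35 ± 0.23 with that tumour (adjusted p 0.0397) and 1.11 ± 0.20 without it (0.0959).

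DKK1 (chr10:52314296-52318042), a secreted inhibitor of WNT signalling, was 84.1, 113, 120 and 137 CPM under RMC-4550 and 36.9, 44.1, 45.9 and 46.3 CPM under Cobimetinib. It rose by 1.39 ± 0.21 (edgeR adjusted p 0.0262) and by 1.51 ± 0.21 without replicate 1 (0.0195), the replicate with its lowest level among the 4. It was the only one of 9 tested WNT feedback genes that was called (beside 0.117% of all genes), and the median of that list was −0.04. CD274 (chr9:5450503-5470566) encodes PD-L1, the ligand with which tumour cells restrain T cells. Its level was 43.7, 39.5, 41.6 and 48.9 CPM against 11.4, 13.5, 14.6 and 18.7 CPM, with Vehicle at 24.7 ± 7.34 CPM. The difference was 1.57 ± 0.25 (adjusted p 0.0262) and was the same size without replicate 1 (1.57 ± 0.26), where its adjusted p of 0.0542 missed the threshold. None of the 12 tested genes for MHC class I and antigen processing was called by edgeR (2 higher and 1 lower at an unadjusted p under 0.05, 0 by DESeq2 and 0 by limma voom), and their median was 0.06.

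The 250 bases before the RefSeq start of CD274 and DUSP6 (build GRCh38.p14) are shown because the first gene was higher and the second, an ERK target described below, lower under RMC-4550. Capitals mark matches on either strand to 6 motifs searched: ETS (CGGAAG), AP-1 (TGANTCA), CRE (TGACGTCA), the antioxidant response element core (TGACNNNGC), FOXO (GTAAACA) and STAT (TTCNNNGAA).
CD274, chr9:5450292-5450541, plus strand: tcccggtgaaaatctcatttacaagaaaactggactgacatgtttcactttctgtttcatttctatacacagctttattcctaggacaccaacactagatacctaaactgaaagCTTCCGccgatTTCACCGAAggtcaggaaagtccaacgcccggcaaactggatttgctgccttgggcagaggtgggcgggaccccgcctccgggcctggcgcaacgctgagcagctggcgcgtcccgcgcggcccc
DUSP6, chr12:89352502-89352751, minus strand: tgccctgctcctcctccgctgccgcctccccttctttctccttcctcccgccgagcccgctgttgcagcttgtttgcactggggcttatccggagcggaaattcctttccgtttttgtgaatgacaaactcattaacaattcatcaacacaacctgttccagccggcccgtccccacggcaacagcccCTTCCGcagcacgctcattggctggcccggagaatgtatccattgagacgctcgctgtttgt
An ETS match began 136 bases before the start of CD274 and 62 bases before that of DUSP6, and CD274 also held a STAT match 125 bases before its start. ETS letters were found in 16.2% and STAT letters in 6.61% of all 35116 promoters of this length, so such matches are common. Of the 16 called protein-coding genes, 12 had a RefSeq promoter entry. Among those 12, 3 held an ETS, 3 a STAT, 3 an antioxidant response element core and 2 a FOXO match. None held an AP-1 or CRE match. Over all promoters the shares were 10.8% for the antioxidant response element core, 3.1% for FOXO, 6.89% for AP-1 and 1.61% for CRE. These counts were not tested. For DUSP6 and several called genes, among them ARID5B, HDAC9, MAP2 and RASGRP3, the window lay inside the gene as counted. ARID5B held both a FOXO and a STAT match there.

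STEAP4 (chr7:88270892-88306891), a metalloreductase for iron and copper, was 360, 358, 236 and 356 CPM under RMC-4550 and 87.8 to 156 CPM under Cobimetinib (1.35 ± 0.23, edgeR adjusted p 0.0397). HGD (chr3:120628173-120682571), an enzyme of tyrosine breakdown, rose from 84.0 ± 6.61 to 154 ± 20.5 CPM (SD, n = 4 each; 0.87 ± 0.15, adjusted p 0.0406). UGT1A6 (chr2:233691607-233773300), a glucuronidation enzyme, was 10.1, 13.3, 12.4 and 12.6 CPM against 2.98, 4.39, 4.32 and 5.45 CPM (1.498 ± 0.25, adjusted p 0.0397). It shares exons with the other genes of the UGT1A locus, so its own part of these counts is uncertain. MAP2 (chr2:209424058-209734118), a microtubule-binding protein best known from neurons, was 10.3 to 13.7 CPM against 3.19 to 4.45 CPM (1.73 ± 0.30, adjusted p 0.0397). SYTL2 (chr11:85694224-85811159), a RAB27 effector in vesicle traffic, was 44.7 to 82.2 CPM against 19.8 to 29.5 CPM (1.48 ± 0.26, adjusted p 0.0459). None of these 5 passed without RMC-4550 replicate 1 in the fit of 13 tumours (adjusted p 0.0542 to 0.116), where their differences were 1.30, 0.84, 1.58, 1.70 and 1.34.

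The other 4 higher calls were not protein-coding. LINC01895 was 43.9 to 68.7 CPM under RMC-4550 and 15.8 to 26.4 CPM under Cobimetinib (1.42 ± 0.26, edgeR adjusted p 0.0459). AC008163.1, a transcribed unitary pseudogene, was 9.03 ± 1.45 against 2.46 ± 0.52 CPM (1.87 ± 0.34, adjusted p 0.0459). TM4SF1-AS1 was 7.41 ± 2.96 against 2.07 ± 0.709 CPM (1.82 ± 0.33, adjusted p 0.0459), and whether the counting used strand is not given in the sources used here, so reads of its sense partner cannot be told apart. AL356234.2 was near the limit of detection, at 0.672 to 1.56 CPM against 0 to 0.142 CPM (3.73 ± 0.63, adjusted p 0.0397).

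Among the 4 genes lower under RMC-4550, CTSK (chr1:150796208-150808323), the collagen-degrading protease cathepsin K, was 10.7 to 14.9 CPM against 22.2 to 28.9 CPM. It fell by 1.082 on the log2 scale (SE 0.16, edgeR adjusted p 0.0262), and by 1.03 without replicate 1, where it was not called (SE 0.17, adjusted p 0.0542). SPRY4 (chr5:142310427-142326455), a Sprouty inhibitor of RAS signalling induced by ERK, was 0.773, 0.651, 0.373 and 0.496 CPM under RMC-4550. Its level was 3.19, 2.31, 2.56 and 3.87 CPM under Cobimetinib, close to the 3.44 ± 1.37 CPM of Vehicle. Its difference was −2.37 ± 0.38 (adjusted p 0.0313), and −2.53 ± 0.43 without replicate 1 (adjusted p 0.0542). SPRY4 was also called against Vehicle under RMC-4550 (−2.58, adjusted p 0.0153), and it was −0.21 from Vehicle under Cobimetinib. HAPLN2 (chr1:156619294-156625725), a hyaluronan link protein, was 0.487 ± 0.225 against 2.80 ± 0.975 CPM, a difference of −2.52 ± 0.39 (adjusted p 0.0262) that was called without replicate 1 too (−2.80 ± 0.43, adjusted p 0.0358). TGM1 (chr14:24249114-24264432), a transglutaminase of the epithelial cornified envelope, was 0.945 to 1.49 against 2.97 to 3.97 CPM (−1.56 ± 0.27, adjusted p 0.0397). HAPLN2, SPRY4 and TGM1 were all low, with few reads behind each value.

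**Figure D2:**
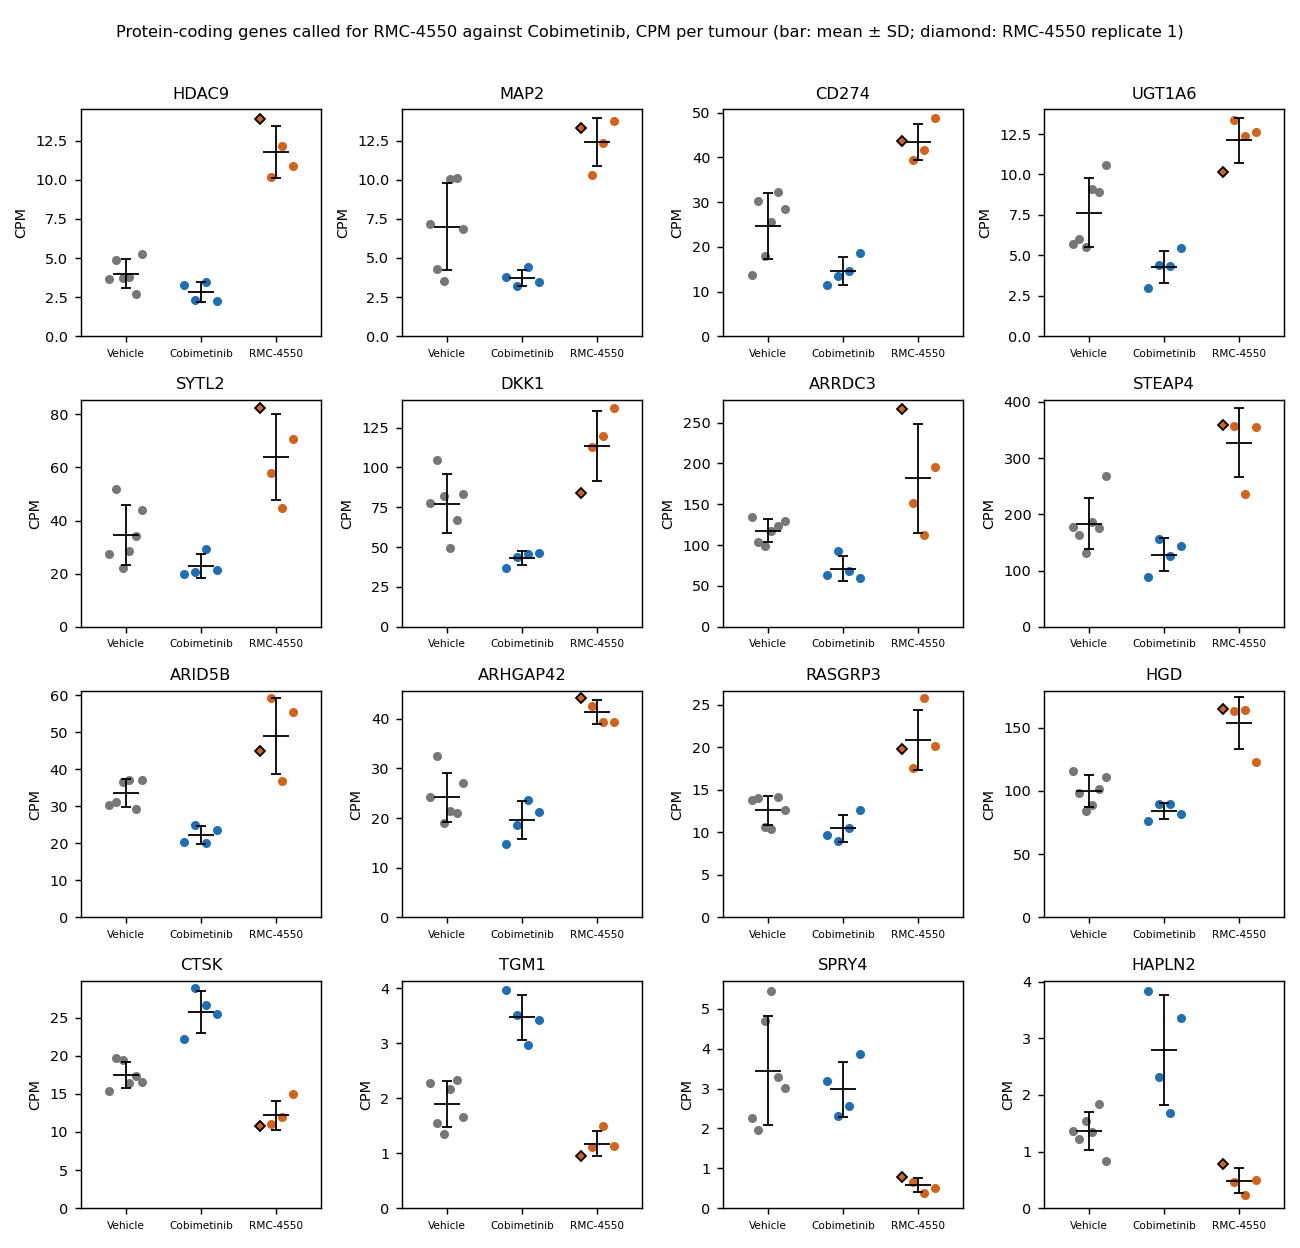
CPM (y axis, from 0) of the 16 protein-coding genes called for RMC-4550 against Cobimetinib, 1 point per tumour in the 3 groups, with the mean and SD as bars and RMC-4550 replicate 1 as a diamond. In each panel the 4 RMC-4550 tumours lie wholly above (first 12 panels) or below (last 4) the 4 Cobimetinib tumours.

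The mean log2 CPM of 9 ERK-responsive genes, used as a score of ERK output, was lower under RMC-4550 than under Cobimetinib. The tumours scored 2.77, 3.77, 3.30 and 3.44 under RMC-4550 (3.32 ± 0.42, SD, n = 4) and 4.47, 4.25, 3.92 and 4.18 under Cobimetinib (4.20 ± 0.23, n = 4), against 4.83 ± 0.39 (n = 6) under Vehicle. The groups did not overlap, the difference was −0.88, and it was −0.70 without RMC-4550 replicate 1, which had the lowest score. The list was chosen with results of these data known, so the score is a description without a test. By gene, 1 of the 9 was called, SPRY4, beside 0.117% of all genes. At an unadjusted p under 0.05, 5 were lower, beside 679 of all 17098 genes. In 5 of the 9 (SPRY4, DUSP6, ETV4, ETV5 and SPRY2) every RMC-4550 tumour lay below every Cobimetinib tumour, as was true of 3.96% of all genes. The median difference of the list was −0.55 with replicate 1 and −0.31 without it, and −0.79 to −0.31 over all settings, beside 0.01 for all genes tested. All 9 differences were negative with replicate 1 and 7 without it, DUSP4 and PHLDA1 being the exceptions.

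The members of this score differed in size. DUSP6, the phosphatase that dephosphorylates ERK, was 1.12, 1.89, 0.971 and 2.48 CPM under RMC-4550 and 5.67, 6.70, 4.05 and 7.22 CPM under Cobimetinib, and 18.8 ± 6.71 CPM under Vehicle. Its difference of −1.86 ± 0.38 was the second largest of the list but missed the threshold (edgeR adjusted p 0.0761). Without replicate 1 the adjusted p was 0.180 in the fit of 13 tumours and 0.0384 with the 2 drug groups alone, which gave 0.0765 with replicate 1. ETV4 and ETV5, ETS factors of the PEA3 family, differed by −1.24 ± 0.44 and −0.96 ± 0.34 (adjusted p 0.339 for each). SPRY2 differed by −0.37 ± 0.17, EPHA2 by −0.55 ± 0.39 and CCND1, which encodes cyclin D1, by −0.31 ± 0.25, none of them called. DUSP4 was 253 CPM under Cobimetinib and 252 CPM under RMC-4550, and PHLDA1 was 2.76 and 2.56 CPM, against 425 and 9.75 CPM under Vehicle. Those last 2 genes had almost the same mean under both drugs, while SPRY4 and DUSP6 did not. The PHLDA1 mean under Cobimetinib included 4.54 CPM in replicate 1, against 2.03 to 2.31 CPM in the other tumours of that drug.

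**Figure D3:**
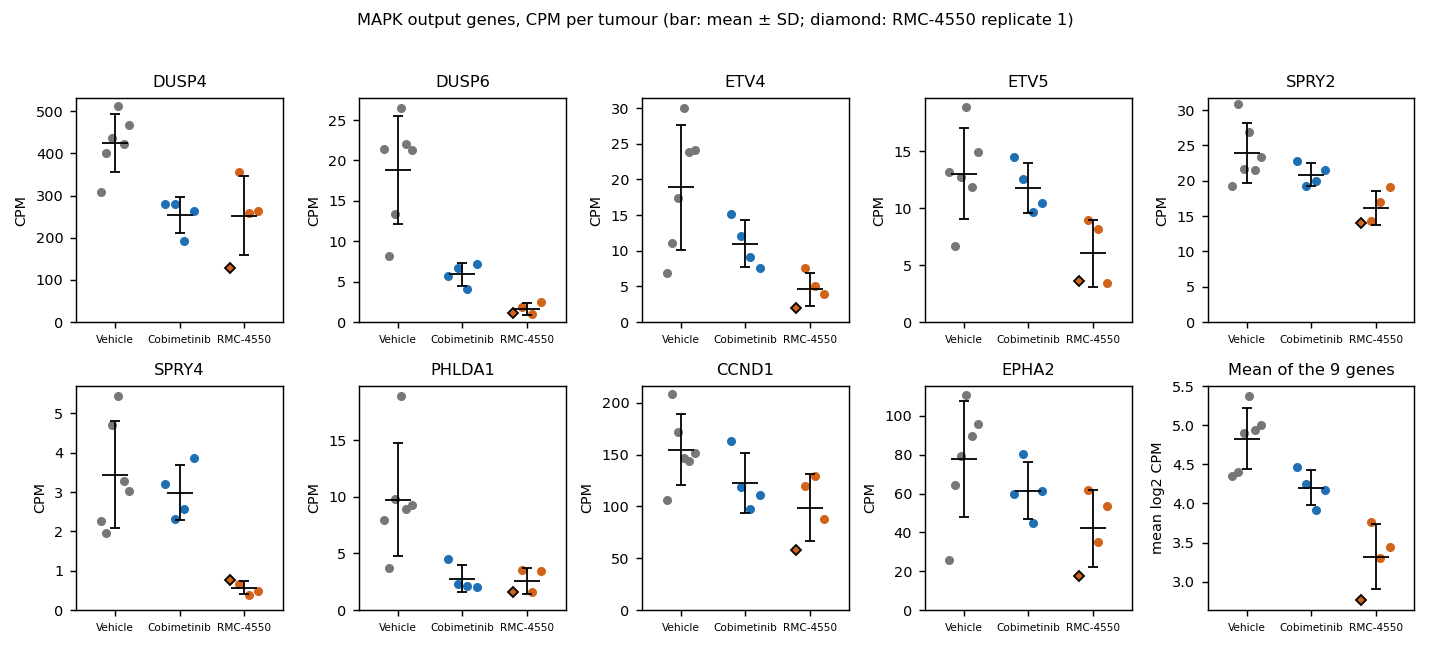
CPM (y axis, from 0) of the 9 tested MAPK output genes in each tumour of the 3 groups, with the mean and SD as bars and RMC-4550 replicate 1 as a diamond, and, in the last panel, the mean log2 CPM of the 9 genes (its axis does not start at 0). The RMC-4550 scores lie between 2.77 and 3.77 and the Cobimetinib scores between 3.92 and 4.47.

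Both drugs were also set beside the same 6 Vehicle tumours, which the 2 comparisons share. RMC-4550 against Vehicle had 4 calls among 17098 genes (0.0234%). These were DUSP6 at −3.52 (edgeR adjusted p 0.00112), SPRY4 and HDAC9, given above, and MYEOV, a gene near CCND1 on chromosome 11, at −1.004 (adjusted p 0.0180). Cobimetinib against Vehicle had 0 calls in edgeR, with 991 genes at an unadjusted p under 0.05, against 1163 for RMC-4550. No other tool was run on those 2 comparisons.

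Among the other Sprouty and SPRED inhibitors, SPRED3 was 1.12, 2.603, 3.58 and 3.19 CPM under RMC-4550 and 7.73, 8.22, 5.53 and 5.07 CPM under Cobimetinib. Its difference of −1.33 ± 0.41 was not called (edgeR adjusted p 0.264), and its Vehicle mean of 2.46 CPM lay at the level of RMC-4550. All 7 members of that list had a negative difference, SPRED1 of only −0.01, with a median of −0.25. Without replicate 1, 5 of the 7 were negative and the median was −0.22. Of 10 MAP kinase phosphatases 0 were called by edgeR (1 lower at an unadjusted p under 0.05), and their median was −0.33. DESeq2 and limma voom called 1 each, beside 1.32% and 2.28% of all genes. DUSP1, which acts mainly on stress kinases, was 419 to 508 CPM against 511 to 750 CPM (−0.43 ± 0.22, adjusted p 0.549). The 13 tested immediate early genes had 0 calls (1 higher and 2 lower at an unadjusted p under 0.05, 1 by DESeq2 and 1 by limma voom) and a median of −0.13 with replicate 1 and −0.03 without it. FOS was 84.1 against 45.7 CPM and EGR1 3.51 against 6.62 CPM, with overlapping tumours in each.

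The transcripts of the proteins that the drugs act on, or that lie between them, did not pass the test. PTPN11 was 91.7, 104, 105 and 98.4 CPM under RMC-4550 and 102, 83.8, 95.4 and 90.0 CPM under Cobimetinib, a difference of 0.10 ± 0.16 (edgeR adjusted p 0.846). The MEK genes MAP2K1 and MAP2K2 differed by −0.09 ± 0.19 and −0.34 ± 0.22, and the kinase gene MAPK3 by −0.36 ± 0.18 (adjusted p 0.542 to 0.884 over these 3). RIT1 was 183, 123, 120 and 133 CPM against 121, 106, 141 and 119 CPM, a difference of 0.20 ± 0.17 with replicate 1, which was highest, and of 0.04 without it (adjusted p 0.738 and 0.995). NRAS differed by 0.34 ± 0.32 and HRAS by −0.34 ± 0.19. The adaptor GAB1 and the exchange factor SOS1 differed by 0.21 ± 0.17 and 0.03 ± 0.13. None of the 11 tested RAS GTPases and none of the 11 RAF, MEK and ERK kinases and substrates was called by edgeR, DESeq2 or limma voom, and none was below 0.05 in unadjusted p. Of 21 SHP2 and RAS regulators RASGRP3 alone was called, beside 0.117% of all genes. RASGRP1, a related exchange factor, was 0.430 to 0.567 CPM against 0.887 to 1.70 CPM (−1.31 ± 0.43, adjusted p 0.291), so the 2 exchange factors stood on opposite sides.

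Of 15 tested receptor tyrosine kinases 0 were called by edgeR (2 higher and 1 lower at an unadjusted p under 0.05, 1 by DESeq2 and 1 by limma voom). The last 2 tools called 1.32% and 2.28% of all genes. ERBB4, a receptor for neuregulins, was 10.6, 10.2, 6.79 and 7.37 CPM under RMC-4550 and 1.99, 2.00, 2.29 and 3.23 CPM under Cobimetinib. Its tumours did not overlap, and its difference of 1.87 ± 0.50 missed the threshold (adjusted p 0.186). It passed with the 2 drug groups alone, with replicate 1 (adjusted p 0.0295) and without it (0.0121), and not in the fit of 13 tumours (0.350). MET, the receptor of hepatocyte growth factor, was 172 to 200 CPM against 101 to 153 CPM (0.58 ± 0.19, adjusted p 0.285). Of the 8 tested EGF receptor ligands 0 were called by edgeR, DESeq2 or limma voom (1 higher at an unadjusted p under 0.05). BTC, which encodes betacellulin, was 4.41 to 6.37 against 2.62 to 4.06 CPM (0.78 ± 0.26, adjusted p 0.295).

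NRF2 target and redox genes had higher levels under RMC-4550 as a list, without a single gene passing the edgeR test. The list was chosen with earlier results of these data known, so its shift is a description without a test. NRF2 is the transcription factor that drives glutathione and thioredoxin enzymes through the antioxidant response element. Of 20 tested members 18 had a positive difference, beside 8809 of all 17098 genes. At an unadjusted p under 0.05, 12 were higher and 0 lower, beside 1032 and 679 of all genes. For 9 of the 20 every RMC-4550 tumour lay above every Cobimetinib tumour (45%, beside 4.44% of all genes). DESeq2 called 5 of the 20 and limma voom 5, beside 1.32% and 2.28% of all genes. The list's median was 0.57 with RMC-4550 replicate 1 and 0.49 without it, and it was 0.42 to 0.64 over all settings, beside 0.01 for all genes. Replicate 1 held the highest level of NQO1, GCLC, GCLM and SLC7A11 among the 4 RMC-4550 tumours.

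NQO1, a quinone reductase, was 801, 546, 542 and 477 CPM under RMC-4550 and 299, 227, 362 and 291 CPM under Cobimetinib. Its difference was 1.01 ± 0.22 (edgeR adjusted p 0.0907), and 0.83 without replicate 1 in the fit of 13 tumours (adjusted p 0.212). With the 2 drug groups alone its adjusted p was 0.109 with that tumour and 0.0497 without it. GPX2, a glutathione peroxidase of epithelia, was 129, 104, 139 and 89.4 CPM against 78.7, 52.0, 46.1 and 47.5 CPM (1.04 ± 0.28, adjusted p 0.192). TXNRD1, thioredoxin reductase, was 710, 811, 721 and 563 CPM against 326, 343, 480 and 380 CPM (0.87 ± 0.22, adjusted p 0.149). GCLC and GCLM, the subunits of the enzyme that starts glutathione synthesis, differed by 0.73 ± 0.17 and 0.85 ± 0.31, and SLC7A11, the cystine importer, by 0.91 ± 0.34. The gene for NRF2 itself, NFE2L2, differed by 0.17 ± 0.14, and KEAP1, which marks NRF2 for breakdown, by −0.12 ± 0.20.

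Promoters of GPX2 and TXNRD1 are shown because both genes had differences above the list's median and hold the antioxidant response element core, in capitals here on the opposite strand.
GPX2, chr14:64942746-64942995, minus strand: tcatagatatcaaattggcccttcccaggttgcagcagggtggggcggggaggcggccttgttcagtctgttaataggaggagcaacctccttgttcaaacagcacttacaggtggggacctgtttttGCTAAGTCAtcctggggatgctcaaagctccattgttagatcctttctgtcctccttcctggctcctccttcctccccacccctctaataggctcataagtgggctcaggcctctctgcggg
TXNRD1, chr12:104286782-104287031, plus strand: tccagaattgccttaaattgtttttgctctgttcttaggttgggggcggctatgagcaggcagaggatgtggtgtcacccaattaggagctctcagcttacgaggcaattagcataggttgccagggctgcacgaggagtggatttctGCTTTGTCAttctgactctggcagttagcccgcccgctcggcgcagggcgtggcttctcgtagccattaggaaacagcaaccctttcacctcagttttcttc
The core began 122 bases before the start of GPX2 and 102 bases before that of TXNRD1. Of the 15 NRF2 and redox genes with a RefSeq promoter entry 6 held it (40%), beside 10.8% of all promoters. The list was made of known targets, so this share says what the list is and not what the drugs did. None of the 9 aldo-keto reductase and retinoid genes with an entry held the core in this window.

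Aldo-keto reductases and retinoid enzymes, which reduce aldehydes and ketones or make and break down retinoic acid, had the highest median of the 36 lists other than cell type markers. It was 0.76 with RMC-4550 replicate 1 and 0.65 without it (0.64 to 0.92 over all settings). The lists were chosen with earlier results of these data known, so this rank is a description without a test. Of 13 tested members 12 were positive, beside 8809 of all 17098 genes. At an unadjusted p under 0.05, 8 were higher and 0 lower, beside 1032 and 679 of all genes. Of the 13, 0 were called by edgeR, 3 by DESeq2 and 6 by limma voom, beside 1.32% and 2.28% of all genes for the last 2 tools. The tumours did not overlap for 6 of the 13 in the higher direction (beside 4.44% of all genes) and for 1, CYP26B1, in the lower (beside 3.96%). ALDH1A1, a retinaldehyde dehydrogenase, was 17.7, 29.2, 44.6 and 26.9 CPM under RMC-4550 and 6.81, 3.27, 3.24 and 4.37 CPM under Cobimetinib. Its difference of 2.74 ± 0.54 was large and narrowly missed the threshold (adjusted p 0.0738). Without replicate 1 it was 2.92 in the fit of 13 tumours (adjusted p 0.0959). With the 2 drug groups alone the adjusted p was 0.0184 with replicate 1 and 0.000698 without it. AKR1B10 was 408, 189, 240 and 176 CPM against 99.7, 49.6, 118 and 74.5 CPM (1.57 ± 0.34, adjusted p 0.0907). RDH10, which makes retinaldehyde from retinol, was 392, 752, 512 and 682 CPM against 257, 296, 170 and 302 CPM (1.19 ± 0.33, adjusted p 0.197). RDH10 was lowest in replicate 1 and AKR1B10 highest there, and without it their adjusted p was 0.198 and 0.228 in the fit of 13 tumours. With the 2 drug groups alone it was 0.106 for each with replicate 1, and 0.0167 and 0.0391 without it. AKR1C1, AKR1C2 and AKR1C3 differed by 0.88, 0.76 and 1.09, but they are near-identical in sequence, so how their reads were split is uncertain. CYP26B1, which breaks down retinoic acid, stood on the other side at −0.55 ± 0.41.

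**Figure D4:**
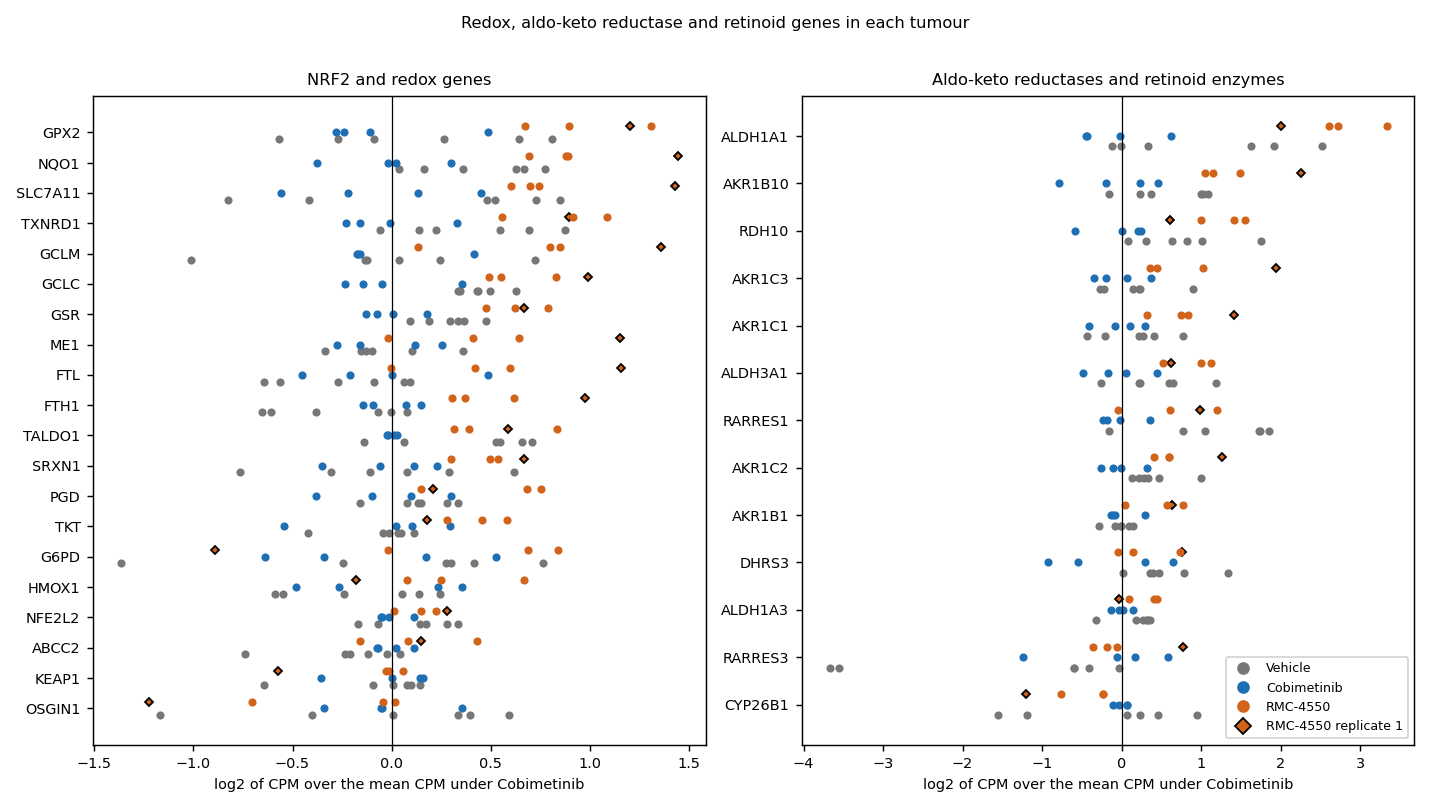
Level of each NRF2 and redox gene (left) and each aldo-keto reductase or retinoid gene (right) in every tumour, as the log2 of its CPM over its mean CPM under Cobimetinib (x axis, 0 is that mean). RMC-4550 tumours (orange, replicate 1 as a diamond) lie to the right of the Cobimetinib tumours without overlap for 9 of 20 and 6 of 13 genes, and to the left without overlap for CYP26B1.

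In lipid metabolism, HPGD, which inactivates prostaglandins, was 21.1, 9.70, 11.8 and 11.1 CPM under RMC-4550 and 5.75, 4.55, 5.06 and 4.75 CPM under Cobimetinib. Its difference was 1.41 ± 0.28 (edgeR adjusted p 0.0738), and 1.11 (0.155) without replicate 1, where its level was highest. PLA2G4A, the phospholipase that frees arachidonic acid, differed by 1.02 ± 0.31, and the median of 10 prostaglandin genes was 0.46 with replicate 1 and 0.48 without it. CD36, a fatty acid importer, was 493, 207, 206 and 216 CPM against 77.3, 81.1, 129 and 67.8 CPM (1.66 ± 0.34, adjusted p 0.0804). Without replicate 1 its adjusted p was 0.174 in the fit of 13 tumours and 0.0169 with the 2 drug groups alone, which gave 0.0964 with replicate 1. Cholesterol synthesis genes leaned to the other side, with 18 of 24 negative (beside 8289 of all 17098 genes) and a median of −0.12. None was called by edgeR, 1 was by DESeq2 and 2 by limma voom, beside 1.32% and 2.28% of all genes for the last 2 tools. At an unadjusted p under 0.05, 0 were higher and 3 lower, beside 1032 and 679 of all genes. In this list LSS and MVK were 59.3 against 132 CPM and 25.3 against 43.8 CPM (−1.15 ± 0.35 and −0.79 ± 0.21, adjusted p 0.253 and 0.182). Without replicate 1 the adjusted p of LSS and MVK was 0.484 and 0.398 in the fit of 13 tumours, and 0.0463 and 0.0497 with the 2 drug groups alone, which gave 0.139 and 0.0916 with replicate 1.

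Amino acid response genes, which the factor ATF4 induces, were on both sides. CHAC1, SESN2, TRIB3 and ASNS were lower in every RMC-4550 tumour than in every Cobimetinib tumour, with differences of −1.18 ± 0.28, −0.89 ± 0.23, −0.81 ± 0.25 and −0.74 ± 0.29. Their means under RMC-4550 (6.40, 13.5, 53.5 and 8.57 CPM) were near those of Vehicle (5.25, 13.3, 65.7 and 7.05 CPM), while those under Cobimetinib were 14.5, 25.1, 94.0 and 14.2 CPM. Such a separation was found for 3.96% of all genes in the lower direction. SLC7A11 was the 1 member with every RMC-4550 tumour above every Cobimetinib tumour (beside 4.44% of all genes), and the median of the 19 genes was −0.03. None of the 19 was called by edgeR, 2 were by DESeq2 and 3 by limma voom, beside 1.32% and 2.28% of all genes for the last 2 tools. At an unadjusted p under 0.05, 1 was higher and 4 lower, beside 1032 and 679 of all 17098 genes.

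Among cell cycle genes, the mitosis and DNA replication lists had small medians, which does not show equal levels. The 25 mitosis genes had a median of −0.14 with 20 negative, and −0.21 with 25 negative without RMC-4550 replicate 1. The 25 DNA replication genes had a median of 0.14 with 20 positive, so the 2 lists leaned to opposite sides. Among all 17098 genes, 8289 were negative and 8809 positive with replicate 1, and 8834 were negative without it. MKI67, the proliferation marker Ki-67, was 196, 358, 503 and 236 CPM under RMC-4550 and 657, 659, 479 and 625 CPM under Cobimetinib, overlapping in 1 tumour of each (−0.90 ± 0.28, edgeR adjusted p 0.253). Neither list had a call in edgeR or DESeq2, and limma voom called 2 mitosis genes and 0 replication genes, beside 2.28% of all genes. At an unadjusted p under 0.05, 0 mitosis genes were higher and 3 lower, and 4 replication genes were higher and 0 lower. Over all 17098 genes these counts were 1032 higher and 679 lower.

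Interferon-stimulated genes were on both sides too. OASL was 2.84, 1.95, 2.76 and 2.76 CPM under RMC-4550 and 16.1, 10.7, 10.3 and 17.6 CPM under Cobimetinib (−2.41 ± 0.53, edgeR adjusted p 0.0910), and IFIT2 differed by −1.25 ± 0.39. Without replicate 1 the adjusted p of OASL and IFIT2 was 0.186 and 0.327 in the fit of 13 tumours. With the 2 drug groups alone it was 0.0123 and 0.106 with replicate 1, and 0.00228 and 0.0192 without it. IFI27 was higher in mean, 21.7 against 5.89 CPM, but its tumours overlapped. The median of the 25 genes was 0.09. Of the JAK-STAT feedback genes, SOCS3 was 22.6 to 36.8 CPM against 10.2 to 18.8 CPM (0.97 ± 0.45, adjusted p 0.492), and 0 of 19 were called by edgeR, DESeq2 or limma voom (3 higher at an unadjusted p under 0.05). MUC15, a membrane mucin, was 7.14 ± 2.68 against 2.17 ± 0.904 CPM (SD, n = 4 each) and differed by 1.71 ± 0.37 (adjusted p 0.0907). The medians of 3 further lists differed with and without RMC-4550 replicate 1. They were −0.43 and −0.16 for 13 alveolar type 2 genes, 0.34 and 0.12 for 13 BMP, SMAD and ID genes, and 0.08 and 0.43 for 8 mucins.

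**Figure D5:**
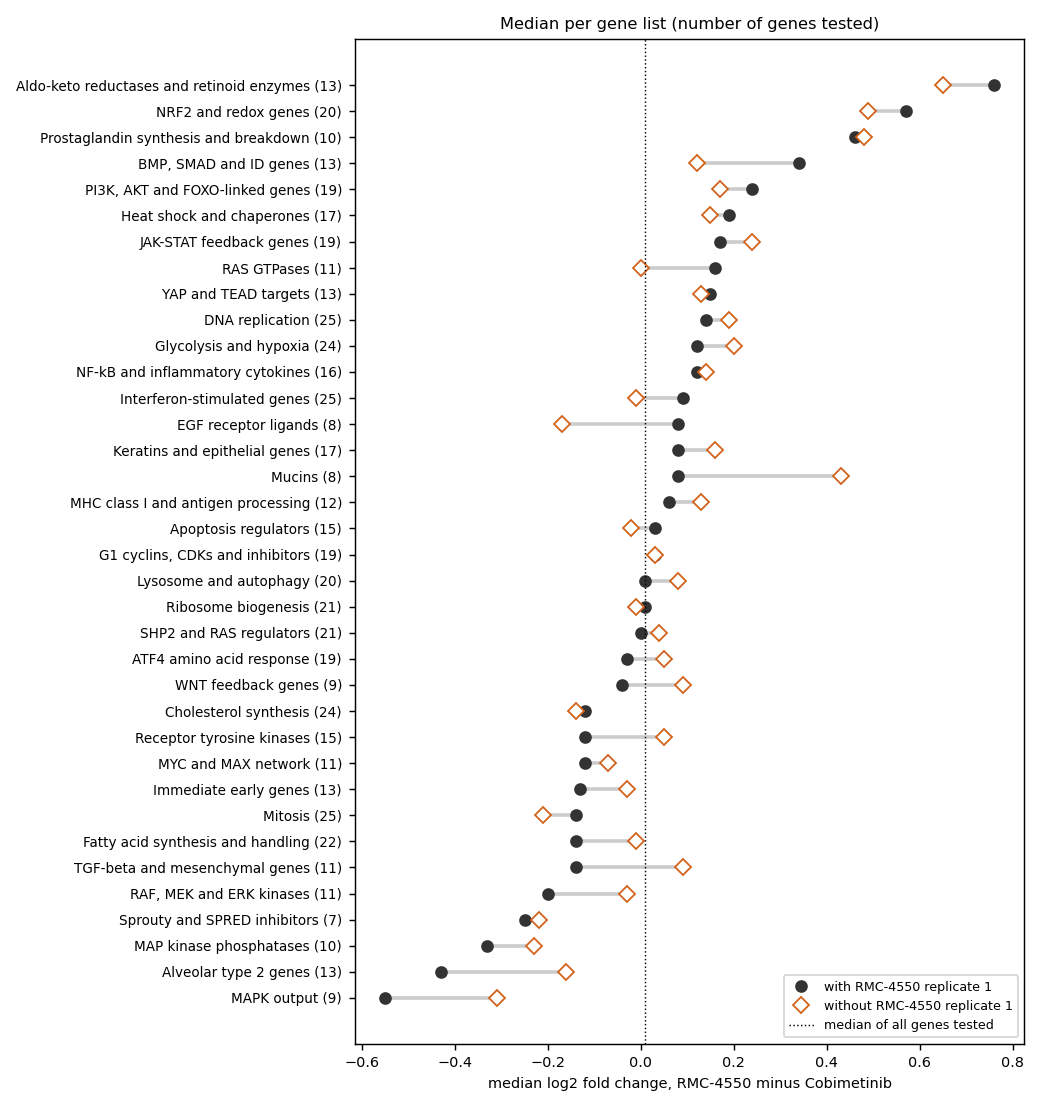
Median log2 fold change of RMC-4550 minus Cobimetinib (x axis) for each of the 36 gene lists other than cell type markers (y axis, with the number of genes tested), with RMC-4550 replicate 1 (filled circles) and without it (open diamonds). The dotted line is the median of all genes, 0.01, the highest list median is 0.76 and the lowest −0.55.

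MRC1, the mannose receptor best known from macrophages, differed widely between the drugs but missed the threshold. It was 47.8, 21.4, 60.9 and 39.4 CPM under RMC-4550 and 4.47, 4.07, 3.10 and 3.87 CPM under Cobimetinib, with Vehicle at 12.8 ± 14.7 CPM (SD, n = 6). Its difference was 3.45 ± 0.69 (edgeR adjusted p 0.0738). It passed with the 2 drug groups alone, with replicate 1 (adjusted p 0.00763) and without it (0.000698), and not in the fit of 13 tumours without replicate 1 (0.139). Of the 12 myeloid markers it was the only one of the 5 tested with a positive difference. CSF1R was 2.00 against 3.05 CPM, CD14 9.52 against 10.8 CPM and LAPTM5 0.914 against 2.75 CPM, and AIF1 was at 0 in all 8 tumours. The sum of the 12 markers was 36.8 to 76.3 CPM under RMC-4550 and 14.5 to 27.5 CPM under Cobimetinib, with MRC1 the main part of the first. Summed endothelial markers were 47.7 to 75.5 against 70.9 to 130 CPM, fibroblast markers 72.2 to 230 against 124 to 227 CPM, and skeletal muscle markers 135 to 202 against 94.2 to 140 CPM. Few genes carried these sums, so they do not measure the content of a cell type. COL1A1 was nearly all of the fibroblast sum, and MB and TTN most of the muscle sum. Among endothelial markers CLDN5 was lower (8.59 to 37 against 39.1 to 88.2 CPM), while PECAM1 overlapped (23.7 to 35.3 against 18.2 to 32.7 CPM). Lymphocyte markers summed to 2.66 to 8.85 against 1.84 to 5.64 CPM, and erythrocyte and adipocyte markers to at most 1.01 CPM. Defining markers at 0 in all 8 drug tumours included CD3E, MS4A1 and NKG7 of lymphocytes, POSTN and THY1 of fibroblasts, and HBB of erythrocytes. Whether host reads were removed is not given in the sources used here, and the part of other cells in the results above was not tested.

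Many calls were lost when 1 drug tumour was left out, and RMC-4550 replicate 1 was not particular in this. Only 4 of the 20 were also made in the fit of 13 tumours without RMC-4550 replicate 1, where CALCA was the added call. Leaving out any Cobimetinib tumour, or RMC-4550 replicate 2 or 4, kept 0 to 2 of the 20. With the 2 drug groups alone and without replicate 1, 19 of the 20 were called. CALCA, which encodes calcitonin and CGRP, was 42.2, 91.0, 240 and 83.2 CPM under RMC-4550 and 33.4, 39.4, 22.9 and 22.9 CPM under Cobimetinib. With replicate 1 its difference was 1.95 ± 0.41 (edgeR adjusted p 0.0827), and without it 2.22 ± 0.35 (0.0358). Among the 126 genes called in the 2 drug groups without replicate 1, ATP2A3, IGFBP2 and KIAA1324 were singled out after their values were seen, because replicate 1 lay near or below the Cobimetinib level. ATP2A3, a calcium pump of the endoplasmic reticulum, was 46.9 CPM in replicate 1, 385 ± 33.5 CPM (SD, n = 3) in the other 3 RMC-4550 tumours and 124 ± 42.5 CPM (n = 4) under Cobimetinib. IGFBP2, a binding protein for insulin-like growth factors, was 22.2, 80.0 ± 5.86 and 22.9 ± 7.46 CPM in the same order, and KIAA1324 was 10.9, 47.1 ± 8.32 and 14.2 ± 2.86 CPM. Their differences without replicate 1 were 1.63 ± 0.22, 1.80 ± 0.21 and 1.73 ± 0.19 (adjusted p 0.0104, 0.00235 and 0.00228). None of these 3 passed in that fit with replicate 1 (0.371, 0.148 and 0.198) or in the fit of 13 tumours without it (0.484, 0.238 and 0.327). CD24, a surface glycoprotein of epithelial tumours, was 305 CPM in replicate 1 and 329 ± 20.6 CPM in the other 3, against 148 ± 25.1 CPM under Cobimetinib (1.15 ± 0.16, adjusted p 0.0105). CD24 was also called with the 2 drug groups alone with replicate 1 (0.0374), and not in the fit of 14 or 13 tumours (0.149 and 0.238).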

How the data were processed

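RNA of 14 tumours was analysed, 6 on Vehicle and 4 on each of 2 drugs. The authors deposited raw read counts per gene as whole numbers for 58735 genes. Libraries were strand-specific, per the labels' protocols. The submitters' processing notes name the build hg38, the read trimmer fastp, the aligner HISAT2 (version 2.0.5), the counter featureCounts (version 1.5.0-p3), and also DESeq2 (version 1.20.0) and edgeR (version 3.22.5). No source used here gives the annotation release, the strand setting of the counting, or how host and multi-mapping reads were treated. Positions of all 58735 genes matched GENCODE 29, from which GC content was taken for 58676.

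In R (4.3.3), genes were kept by edgeR (4.0.16) with a minimum count of 10, which left 17098 genes and 99.784% of the counts. Counts were scaled by TMM and fitted with 1 mean per group by robust quasi-likelihood. Tests were 2-sided, adjusted by Benjamini-Hochberg over all genes tested, with a threshold of 0.05. The biological coefficient of variation was 0.295. Levels in CPM were scaled by TMM, and a prior count of 2 was added for log2 CPM. Tumours on the other drugs stayed out because an earlier analysis described 2 of their libraries as lacking low counts.

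Members and the 43 gene lists (695 entries, 3 matched by an older symbol) were chosen with earlier results of these data known. Genes named were the 10 largest called changes each way that were protein-coding, did not overlap and had a mean log2 CPM of at least 2, up to 5 more each way without RMC-4550 replicate 1, up to 3 members per list with the smallest adjusted p, and fixed pathway genes. The other called genes and those singled out in the text fall outside the rule and were named after their values were seen. Not every gene taken by the rule is described.

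Alternatives were DESeq2 (1.42.0), limma voom with library weights (3.58.1), RLE or library-size scaling, other filters, other sets of tumours, the replicate number as a block, a GC offset (span 0.3), both, and leaving out each tumour. On simulated counts for 16794 genes with this design, the test found 4.48% of 1.5-fold, 16.4% of 2-fold and 77.3% of 4-fold changes, with 4 false calls among 69. No molecular identifiers are named, so counting error is a lower bound on the error. Promoters came from RefSeq (GRCh38.p14). Sequencing reads were not used here.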

Additional observations from a re-analysis of the deposited data

Results flagged for a closer look

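In 13 of 135 groups of 4 or 6 tumours that were looked at, 1 tumour lay farther from its group than the 95% critical value of Dixon's test for an outlier allows. Chance gives about 1 in 20. Values are given without an explanation, and where they go with a result is not tested further.

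STEAP4 was 236 CPM in RMC-4550 replicate 3, against 356 to 360 CPM in the other 3 tumours of that drug, which still lay above every Cobimetinib tumour. HGD was 123 CPM in RMC-4550 replicate 4, against 163 to 165 CPM. SOS1 was 89.9 CPM in RMC-4550 replicate 3, against 73.8 to 75.8 CPM. NRAS was 181 CPM in RMC-4550 replicate 1, against 90.7 to 92.7 CPM, and 169 CPM in Vehicle replicate 1, against 59.1 to 82.6 CPM. Under Cobimetinib, SYTL2 was 29.5 CPM in replicate 3, against 19.8 to 21.4 CPM, and MAPK3 was 52.2 CPM there, against 65.8 to 68.1 CPM. PHLDA1 was 4.54 CPM in Cobimetinib replicate 1, against 2.03 to 2.31 CPM.

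Among the library measures, the share of counts in ribosomal protein genes was 6.93% in Vehicle replicate 1, against 3.37% to 4.10% in the rest of Vehicle. The rank correlation of the deviation with GC content was −0.568 in Vehicle replicate 1, against 0.266 to 0.394, and −0.339 in Cobimetinib replicate 3, against 0.348 to 0.483. The median correlation with other libraries was 0.926 in Vehicle replicate 1, against 0.971 to 0.976 in its group, and 0.925 in RMC-4550 replicate 1, against 0.971 to 0.975.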

How the results depend on the processing

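The number of calls changed with the processing. The 20 calls (16 higher, 4 lower) became 226 (155 and 71) with DESeq2, 390 (240 and 150) with limma voom, 8 (4 and 4) with library-size scaling, 50 (41 and 9) without a filter, 5 (5 and 0) with all 22 tumours, 90 (69 and 21) with all but Trametinib replicate 4, 12 (8 and 4) with the GC offset and 22 (15 and 7) with the 2 drug groups alone. RLE scaling gave 20 and a mean CPM of at least 1 gave 19. Of the 20 calls of the fit as reported, only 6 were among the 12 made with the GC offset. The GC offset combined with the replicate block also kept 6 of the 20. With the replicate number as a block edgeR made 0 calls (0 higher, 0 lower, lowest adjusted p 0.0863, 1606 genes at an unadjusted p under 0.05), and with the replicate block and the GC offset 13 (11 and 2). Same-numbered RMC-4550 and Cobimetinib tumours correlated in their deviations at −0.119, 0.359, −0.229 and 0.128, and only replicate 2 correlated best with its own number, so the numbers were not taken as pairs. Leaving out each of the 14 tumours gave 0 to 71 calls, 0 to 49 higher and 0 to 22 lower. Chosen after seeing the data were fits of the 2 drug groups without RMC-4550 replicate 1 (126 calls, 100 and 26), of 14 tumours less RMC-4550 replicate 1 and Vehicle replicate 1 (99, 72 and 27) and of the 2 drug groups less RMC-4550 replicate 1 and Cobimetinib replicate 3 (393, 220 and 173). The difference in the score of ERK-responsive genes was −1.295 with 5 genes and −1.033 to −0.697 with each drug tumour left out, from −0.884. The causes were not tested. At this depth and with 4 tumours a drug, 1.5- and 2-fold changes were mostly missed on simulated counts, so a gene that was not called is not shown to be equal.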
